A study of Mus musculus with 6 samples.

Results

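DNA damage response and repair genes were followed in the bone marrow of irradiated mice. The list holds 37 genes, and 35 of them had at least 1 probe, 37 probes in all, among the 13831 genes named on the array. Members were taken as every probe whose sequence record or gene number leads to a listed symbol. Atr and Lig4 had no matched probe, and Neil1 and Brca1 had 2 probes each.

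RNA of pooled marrow cells was hybridized to 6 CodeLink UniSet Mouse 20K I arrays, 2 per group. The group MSC was lethally irradiated (9.5 Gy) and received 1000000 bulk mouse mesenchymal stromal cells (mMSCs, cultured and labeled with eGFP), with 3 mice per pool. The group HSC was irradiated with the same dose and received 1000000 whole bone marrow cells, with 2 mice per pool, so HSC names a transplant of marrow and not of sorted stem cells. The group BM was marrow of unmanipulated mice without radiation or transplant, again with 2 mice per pool. All animals were female mice labelled C57BL/6J at 6 to 10 weeks of age, and the methods give the recipients as C57BL/6J-CD45.1 and the mMSC donors as male. The methods place sampling of the transplanted groups at day 21, whereas the series description gives 7 months. Each limma p-value below sets a difference between group means against the spread between pools within groups. That spread is estimated from all 6 arrays in the main fit and drawn toward that of the other probes. The replicates are 2 pools per group and not single mice.

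Cells recognise damaged DNA through kinases such as ATM and ATR, which mark the chromatin beside a double-strand break by phosphorylating the histone variant H2AX and halt the cell cycle through CHK1 and CHK2. Oxidised or alkylated bases are cut out by glycosylases and replaced by base excision repair, broken ends are rejoined by end joining or copied from the sister strand by homologous recombination, bulky lesions are removed by nucleotide excision repair, and replication errors are corrected by mismatch repair. In marrow, end joining also completes the V(D)J recombination of developing lymphocytes, and blood-forming cells are among the most radiation-sensitive cells of the body.

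Of the 35 genes with a probe, 20 lay above background on all 6 arrays, 13 on 1 to 5 arrays and 2 (Nthl1, a glycosylase for oxidised pyrimidines, and Ercc2, a helicase of nucleotide excision repair) on none. No member spot was saturated. Between 11045 and 12458 of 19801 probes lay above background per array, and the median spot was 2.1 to 2.69 times its local background. All 10 neutrophil markers with a probe passed the background filter in both comparisons with MSC, and 9 did between HSC and BM. The map of all member probes by array shows that most of them varied little beside H2ax and Neil1.

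**Figure D1:**
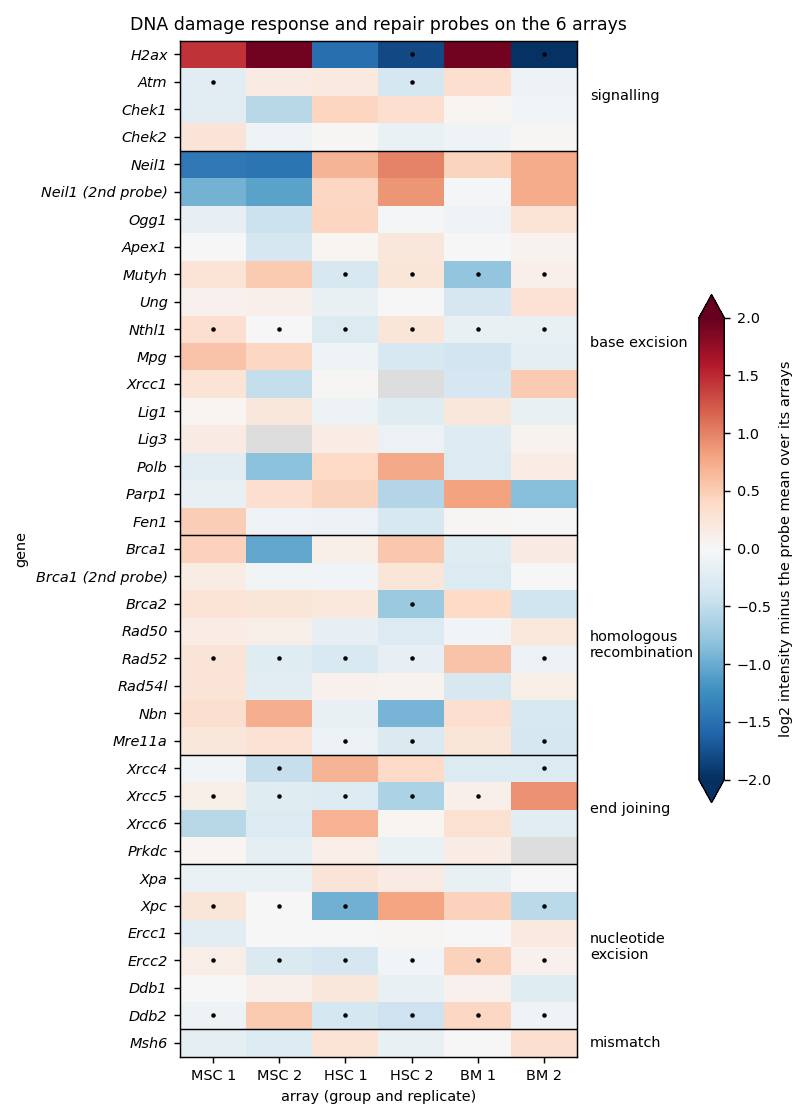
Each row is a probe of a repair gene and each column an array, and the colour is the log2 intensity minus the mean of the probe over its arrays (colours stop at 2 in either direction). A black dot marks a spot not above background and grey a spot that was left out. H2ax is high on both MSC arrays and BM 1, and both Neil1 probes are low on both MSC arrays.

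With all 6 arrays fitted, Neil1 was the only member called in any comparison. It encodes a DNA glycosylase that removes oxidised bases, the first step of base excision repair. In MSC its first probe, the brighter one, read 9.11 and 9.08 (log2 intensity), against 11.22 and 11.53 in HSC and 10.99 and 11.28 in BM. Both MSC arrays lay below all 4 other arrays, and HSC and BM overlapped. Before any normalization, the spot exceeded its background by 434.6 and 540.3 units in MSC, by 1911.8 and 2542.3 in HSC and by 2395.4 and 2825.8 in BM. The low place of MSC was thus already present in the scanned intensities, whereas the order of HSC and BM was not the same before and after normalization.

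Against HSC this probe was lower in MSC by a log2 fold change of -2.28 (SE 0.22, 95% interval -2.80 to -1.75), or 4.85-fold (limma with Benjamini-Hochberg adjustment over 11644 probes, adjusted p = 0.0175). Against BM it was lower in MSC by -2.04 (SE 0.22, -2.57 to -1.51), or 4.11-fold (limma, adjusted p = 0.0211). Between HSC and BM the log2 fold change was 0.24 (SE 0.22, limma, adjusted p = 0.899). Neil1 was thus 1 of 28 tested members called between MSC and HSC, where 0.507% of all tested probes were called (0.421% lower), and 1 of 28 between MSC and BM, where 0.439% were called (0.287% lower). Without MSC 1, MSC 2, HSC 1 or HSC 2 in turn, the log2 fold change between MSC and HSC stayed between -2.43 and -2.12. The call was lost in each of these fits, which leave 1 array in a group and so less precision. The call against BM was likewise lost without MSC 1, MSC 2 or BM 2, with log2 fold changes of -2.05, -2.02 and -1.89.

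The second Neil1 probe read 8.84 and 8.72 in MSC, against 10.20 and 10.67 in HSC and 9.77 and 10.53 in BM. It showed the same order, with both MSC arrays lowest. Its log2 fold change was -1.66 (SE 0.31) between MSC and HSC and -1.37 (SE 0.31) between MSC and BM, and neither passed the threshold (limma, adjusted p = 0.0892 and 0.177). The first Neil1 probe and the H2ax probe stand in the list that the study drew from these same arrays by p and ratio, so the present values are no independent evidence for either gene.

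Markers of early B cells were also lower in MSC. Of 12 tested markers of this kind, 6 were called lower in MSC than in HSC by limma (median log2 fold change of the 12 markers -2.01), and 4 were called lower in MSC than in BM (median -1.09). Their median level per array, relative to the mean over all arrays, was -1.29 and -0.64 in MSC, 0.91 and 0.78 in HSC and 0.55 and -0.06 in BM. The 2 MSC arrays differed in this median by more than in Neil1. Between the BM arrays the median was higher on BM 1, and the first Neil1 probe was higher on BM 2 (10.99 on BM 1 and 11.28 on BM 2). The part of early B cells in the Neil1 result was not tested. In RNA of whole marrow, fewer cells of a type and less RNA per cell cannot be told apart. Among the lists of cell type markers, that of T and NK cells split the MSC arrays most, with a median of -0.38 on MSC 1 and 1.86 on MSC 2. The first Neil1 probe differed by 0.03 between these 2 arrays, and the part of T and NK cells in the Neil1 result was not tested.

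The promoter of Neil1 is given here because the gene was the one called and 2 of its probes moved alike. RefSeq (GRCm38.p6) held a promoter for 30 of the 37 genes, 36 promoters in all. The 250 bases before the listed start of Neil1 lie at chr9:57148306-57148555 on the minus strand, inside the bounds of the gene, which reach past this start. Capitals mark the motifs found on either strand.

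Neil1: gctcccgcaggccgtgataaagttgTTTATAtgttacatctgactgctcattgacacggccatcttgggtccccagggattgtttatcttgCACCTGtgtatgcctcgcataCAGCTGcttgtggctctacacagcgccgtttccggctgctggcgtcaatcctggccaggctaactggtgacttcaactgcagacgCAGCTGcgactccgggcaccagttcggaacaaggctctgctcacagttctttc

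Searched on both strands were the TATA box TATAAA, the E-boxes CAGGTG and CAGCTG, the CCAAT box, the GC box GGGCGG, and the E2F-type motifs TTTGGCGC, TTTCGCGC and TTTCCCGC. None of these motifs contains another. Of 32851 promoter windows of this length, 12.4% held at least 1 TATA box and 27.7% at least 1 E-box. The Neil1 window held 1 TATA box and 3 E-boxes. It held none of the CCAAT box (33.8% of all windows), GC box (32.7%) or E2F-type motifs (1.53%). Among the 36 promoters of repair genes, 8 held an E-box, 3 the TATA box, 17 the CCAAT box, 21 the GC box and 4 an E2F-type motif. These counts include Neil1 itself. Genes with several listed starts enter more than once, Rad54l with nearly identical windows, so the promoters are not independent. A match describes letters in this window and not a site in use.

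H2ax had the largest measured fold change of all tested members between MSC and HSC and did not pass the test. It encodes the histone variant that is phosphorylated around double-strand breaks. In MSC it read 10.88 and 11.36 (log2 intensity), against 7.93 and 7.64 in HSC and 11.36 and 7.45 in BM. Both MSC arrays lay above both HSC arrays, but the 2 BM arrays were split, BM 1 with the MSC arrays and BM 2 near the HSC arrays. The spot exceeded its background by 1618.9 and 2642.5 units in MSC, by 141.7 and 100.2 in HSC, and by 3101.5 and 103.3 in BM. It was above background on both MSC arrays, on HSC 1 and on BM 1, but not on HSC 2 or BM 2.

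The log2 fold change between MSC and HSC was 3.34 (SE 1.08, 95% interval 0.78 to 5.90), or 10.1-fold higher in MSC (limma, adjusted p = 0.205), with H2ax above background on 1 of the 2 HSC arrays. The spread in this fit is shared by all 6 arrays, and the gap between the 2 BM arrays enters it. With only the 4 MSC and HSC arrays fitted, the same fold change had an SE of 0.26 and passed (limma, adjusted p = 0.00999). It also passed the rule of the methods' t-test, p of at most 0.01 and ratio of at least 2.5, with the first Neil1 probe as the other member. That rule passed 33 of 10782 probes (0.306%), and after Benjamini-Hochberg adjustment it called 0 probes, with a smallest adjusted p of 0.317.

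Against BM, H2ax had a log2 fold change of 1.71 in MSC (SE 1.08, -0.85 to 4.27, limma, adjusted p = 0.574), and the 2 groups overlapped. This value depended on which BM pool was kept. Without BM 1 it was 3.67 (limma, adjusted p = 0.0126), a difference from the background reading of BM 2, against whose lowest signal above background MSC was at least 12.1-fold higher. Without BM 2 it was -0.24 (limma, adjusted p = 0.879). HSC against BM was not tested for H2ax, because neither group was above background on both arrays. Without BM 2 it entered the test only through BM 1, the BM array where it was high. Its call as lower in HSC in that fit rests on this choice of array and is no support for a difference.

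The measured gap between the 2 BM arrays for H2ax was 3.91 on the log2 scale, with BM 1 higher. Since BM 2 was not above background, this is a bound, and against the lowest signal above background on BM 2 the spot of BM 1 was at least 14.3-fold higher. A measured gap as large was found in 0.0939% of 11709 probes, and the median gap over all probes between the BM arrays was 0.28. H2ax had been singled out for this gap beforehand, so this share is a description and no test. The 2 MSC arrays differed by 0.49 and the 2 HSC arrays by 0.29 for the same probe. The gap was 3.82 to 4.62 under the other background corrections, normalizations and deposited values tried. The order MSC 1, MSC 2 and BM 1 above HSC 1, HSC 2 and BM 2 by at least 2 log2 units was found in 5 of 10776 probes (0.0464%), a pattern built from the values of H2ax itself, so its own place in it is a description. They were H2ax (smallest difference 2.95), the glycolytic enzyme Pkm (2.80), Arhgap45 (2.05), the replicative helicase subunit Mcm7 (2.01) and the immediate early gene Fos (2.01).

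Proliferation markers were read beside H2ax. None of 19 tested markers was called between MSC and HSC (median log2 fold change 0.36). Their median level per array was 0.16 and 0.12 in MSC, 0.07 and -0.46 in HSC and 0.24 and -0.11 in BM. BM 1 and BM 2 lay much closer in this median than in H2ax, but a median over 19 markers and a single probe are unlike measures. Mcm7, named above for the same order of arrays as H2ax (smallest difference 2.01), belongs to these markers. It had their highest log2 fold change between MSC and HSC, 2.36. It was the only one of them found in that order by at least 2 log2 units. The part of proliferating cells in the H2ax values was not tested.

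**Figure D2:**
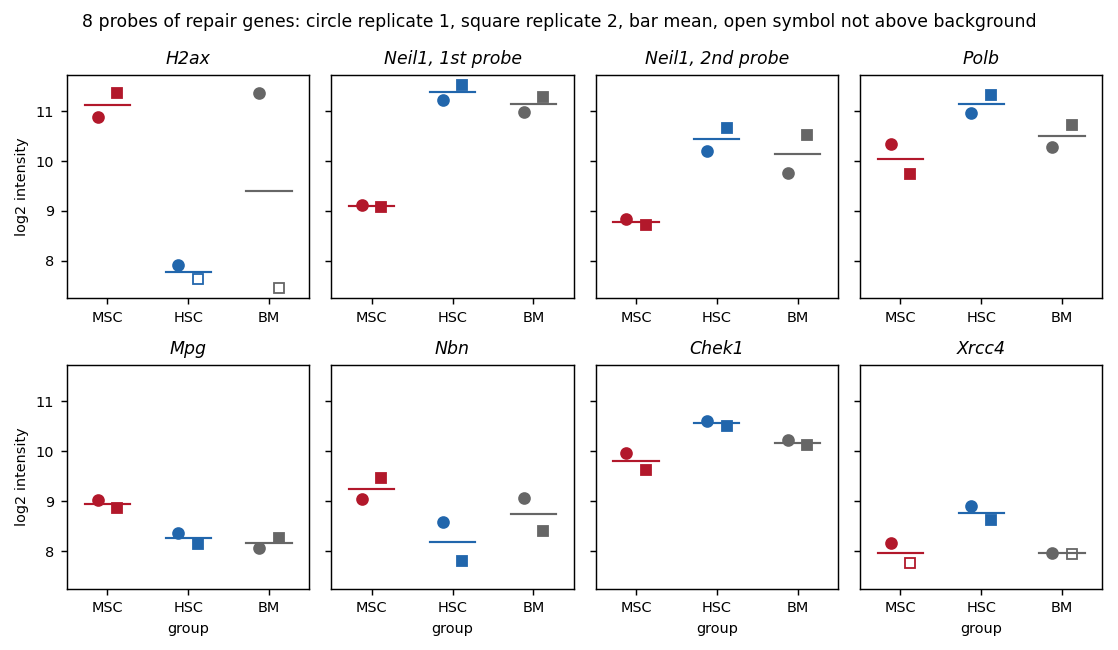
Log2 intensity of 8 probes on each array, with MSC, HSC and BM from left to right, circles for replicate 1, squares for replicate 2 and bars for group means, and open symbols for spots not above background. H2ax splits the 2 BM arrays, at 11.36 and 7.45, while both Neil1 probes keep both MSC arrays below the other 4.

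Among the other damage signalling genes, the checkpoint kinase Chek1 read 9.97 and 9.63 in MSC, against 10.60 and 10.52 in HSC and 10.22 and 10.12 in BM. The 3 groups did not overlap, with MSC lowest and HSC highest. The log2 fold change was -0.76 between MSC and HSC (SE 0.21, limma, adjusted p = 0.165), -0.37 between MSC and BM (SE 0.21, adjusted p = 0.540) and 0.39 between HSC and BM (SE 0.21, adjusted p = 0.896). The companion kinase Chek2 had a log2 fold change of 0.14 between MSC and HSC, and its groups overlapped. Atm, the apical kinase of the double-strand break response, was tested against BM only, with values of -0.13 in MSC and -0.18 in HSC.

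Of 12 tested base excision genes, Neil1 fell and the other 11 did not pass between MSC and HSC (median log2 fold change 0.15). Polb, the polymerase that fills the excised gap, read 10.34 and 9.75 in MSC, against 10.97 and 11.33 in HSC and 10.28 and 10.72 in BM. The MSC and HSC arrays did not overlap, whereas MSC and BM did. Its log2 fold change was -1.10 between MSC and HSC (SE 0.29, 95% interval -1.79 to -0.42, limma, adjusted p = 0.150), -0.46 between MSC and BM and 0.65 between HSC and BM. Mpg, the glycosylase for alkylated purines, moved in the opposite direction to Neil1 without passing. It read 9.02 and 8.87 in MSC, against 8.37 and 8.14 in HSC and 8.07 and 8.27 in BM, with both MSC arrays above the other 4. Its log2 fold change was 0.69 between MSC and HSC (SE 0.21, limma, adjusted p = 0.186) and 0.78 between MSC and BM (SE 0.21, adjusted p = 0.247).

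The remaining glycosylases of the list lay between these. Ogg1, which removes 8-oxoguanine, had a log2 fold change of -0.49 between MSC and HSC, and Ung, which removes uracil, had 0.16, and neither passed (limma, adjusted p = 0.379 and 0.777). Mutyh, which removes adenine opposite 8-oxoguanine, was above background on both MSC arrays and on no HSC or BM array. It was at least 1.13-fold higher in MSC than in HSC and at least 1.21-fold higher than in BM, measured against the lowest signal above background or the probe's own, whichever was higher, and it passed in neither comparison (limma, adjusted p = 0.558 and 0.443). Apex1, the endonuclease that cuts the abasic site, had a log2 fold change of -0.31 between MSC and HSC with no overlap. The flap endonuclease Fen1 (0.43) and the DNA ligase Lig1 (0.30) did not overlap either, with MSC higher. Parp1, the sensor of single-strand breaks, had 0.17 with an interval of -1.20 to 1.53, the widest of this class, and read 10.09 on BM 1 and 8.43 on BM 2. Lig3 and Xrcc1, partners in single-strand break repair, had 0.15 and -0.12, each with 1 array left out.

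In homologous recombination, 6 genes were tested between MSC and HSC and 0 passed (median log2 fold change 0.40). Of these, 4 were higher in MSC without overlap, as were 24.9% of all probes. Among these 4, Brca2 and Mre11a were tested only because both MSC arrays were above background. Nbn, a subunit of the complex that recognises broken ends, read 9.05 and 9.46 in MSC, against 8.58 and 7.80 in HSC and 9.06 and 8.41 in BM. The MSC and HSC arrays did not overlap, whereas MSC 1 and BM 1 were nearly equal. Its log2 fold change was 1.06 between MSC and HSC (SE 0.35, 95% interval 0.23 to 1.90, limma, adjusted p = 0.211) and 0.52 between MSC and BM (adjusted p = 0.606). The other subunits of this complex, Rad50 and Mre11a, had no overlap between MSC and HSC either and did not pass. Rad50 had a log2 fold change of 0.35 (SE 0.20), and Mre11a, not above background on either HSC array, was at least 1.29-fold higher in MSC (limma, adjusted p = 0.421 and 0.398).

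Brca2, a mediator of homologous recombination, had a log2 fold change of 0.52 between MSC and HSC without overlap (SE 0.38, limma, adjusted p = 0.519), with HSC 2 not above background. Brca1, which acts upstream of it, gave different pictures with its 2 probes. The first probe read 13.29 and 11.79 in MSC, against 12.95 and 13.36 in HSC and 12.60 and 13.00 in BM. The 2 MSC arrays differed by 1.49, a gap that 1.44% of probes reached, with MSC 2 the lowest of the 6 arrays and MSC 1 above all but HSC 2. Its log2 fold change of -0.62 between MSC and HSC (SE 0.47, limma, adjusted p = 0.537) turned to 0.13 without MSC 2. The second Brca1 probe had -0.04 (SE 0.22), with a gap of 0.20 between the MSC arrays.

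All 3 end joining genes tested between MSC and HSC had negative log2 fold changes (median -0.78), and 0 passed. Xrcc4, the partner of the ligase that seals the ends, read 8.17 and 7.77 in MSC, against 8.90 and 8.61 in HSC and 7.96 and 7.95 in BM. Both HSC arrays were above the other 4, of which MSC 2 and BM 2 were not above background. The log2 fold change was -0.79 between MSC and HSC (SE 0.23, limma, adjusted p = 0.173) and 0.80 between HSC and BM (SE 0.23, adjusted p = 0.804). Xrcc4 was the only member with an unadjusted p under 0.05 between HSC and BM. In both comparisons it passed the background filter only through HSC, where it was high, so its direction is no support for a change. The median of the 3 genes includes it. Xrcc6, the Ku70 subunit that binds broken ends, read 9.49 and 9.76 in MSC, against 10.73 and 10.08 in HSC and 10.34 and 9.82 in BM. Both MSC arrays were below the other 4, with a log2 fold change of -0.78 between MSC and HSC (SE 0.30, limma, adjusted p = 0.258) and -0.46 between MSC and BM (SE 0.30, adjusted p = 0.592). Prkdc, the catalytic subunit of the DNA-dependent kinase, had -0.07 between MSC and HSC, and Xrcc5, the Ku80 subunit, was above background on BM 2 only.

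All 3 nucleotide excision genes tested between MSC and HSC lay within 0.5 log2 units of 0, and 0 passed. Xpa, which verifies the lesion, read 10.31 and 10.31 in MSC, against 10.70 and 10.60 in HSC and 10.29 and 10.43 in BM, with a log2 fold change of -0.34 between MSC and HSC (SE 0.19, limma, adjusted p = 0.415). HSC was above both other groups on both arrays. Ercc1, part of the nuclease that cuts 5′ of the lesion, had -0.13 (SE 0.20), and Ddb1, an adaptor of the ubiquitin ligase that senses ultraviolet damage, had 0.01 (SE 0.23). Xpc and Ddb2, the damage sensors of this pathway, were above background on 2 arrays and 1 array and were not tested. Msh6, the mismatch recognition subunit and the only member of mismatch repair, read 10.98 and 10.89 in MSC, against 11.44 and 11.03 in HSC and 11.19 and 11.50 in BM. Both MSC arrays were lowest, with log2 fold changes of -0.30 against HSC (SE 0.24, limma, adjusted p = 0.555) and -0.40 against BM (SE 0.24, adjusted p = 0.543).

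**Figure D3:**
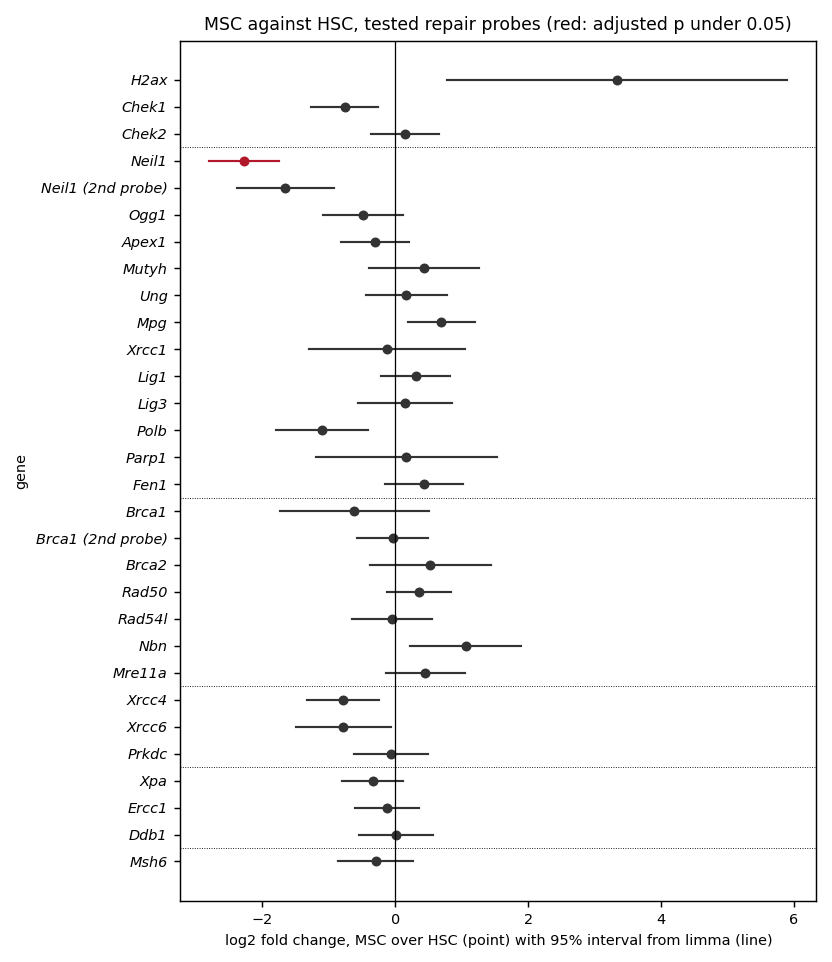
Log2 fold change of MSC over HSC for each tested repair probe, with its 95% interval from limma, in the order signalling, base excision, homologous recombination, end joining, nucleotide excision and mismatch repair from top to bottom, separated by dotted lines. The first Neil1 probe, in red, is the one with an adjusted p under 0.05, at -2.28, and H2ax, at 3.34, has the widest interval.

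Over the whole list, 28 members were tested between MSC and HSC, with log2 fold changes from -2.28 to 3.34 and a median of -0.02, against 0.02 over all tested probes. Of these, 24 lay within 1 log2 unit of 0. An unadjusted p under 0.05 was reached by 8 members, where 17.1% of all probes reached it. The 2 groups did not overlap in 20 of the 26 members with a value on all 4 arrays (10 higher and 10 lower in MSC), where 51.3% of all probes did not overlap (24.9% higher and 26.4% lower). Of these 20, H2ax, Mutyh, Brca2 and Mre11a (higher) and Xrcc4 (lower) passed the background filter only through the group where they were high. Between MSC and BM, 28 members were tested, with a median of 0.07 against 0.01 over all probes, 2 reached an unadjusted p under 0.05 (12.5% of all probes), and 8 of 26 did not overlap (42.5% of all probes). Between HSC and BM, 26 members were tested and 0 called by limma, where 0.0359% of all probes were called. The median was 0.03 against 0.00, and 6 of 24 did not overlap (36.6% of all probes). An unadjusted p under 0.05 was reached by 1 member (5.41% of all probes), Xrcc4, which passed the background filter only through HSC. MSC against HSC and HSC against BM share the HSC arrays, and MSC against BM shares arrays with both.

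Other genes of the same pathways gave no call. Of 100 further genes listed for damage signalling, the repair pathways and translesion synthesis, 79 had a probe. Between MSC and HSC 64 were tested and 0 passed in limma, with 9 at an unadjusted p under 0.05 and a median log2 fold change of 0.08. Between MSC and BM these values were 65, 0, 9 and 0.02, and between HSC and BM 59, 0, 2 and -0.03. Polm, a polymerase of end joining, read 7.06 and 7.83 in MSC, against 8.91 and 8.64 in HSC and 8.98 and 8.97 in BM. Both MSC arrays were below the other 4, though MSC 1 was not above background, with log2 fold changes of -1.33 (SE 0.29) against HSC and -1.53 (SE 0.29) against BM (limma, adjusted p = 0.116 and 0.109). Dclre1c, the Artemis nuclease that opens the hairpins of V(D)J recombination, read 7.53 and 7.95 in MSC, against 8.19 and 8.06 in HSC and 8.29 and 8.46 in BM, with a log2 fold change of -0.64 against BM (SE 0.23, adjusted p = 0.332) and MSC 1 not above background. The single-strand binding subunit Rpa2 had a log2 fold change of 1.23 against HSC, whereas Rpa3, another subunit of the same complex, had -1.04 (limma, adjusted p = 0.480 and 0.158).

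Rpa2 shared with H2ax a difference between the 2 BM arrays. It read 9.82 and 10.22 in MSC, against 9.22 and 8.37 in HSC and 10.45 and 7.63 in BM. For this gene BM 1 was above BM 2, which was not above background, and HSC 1 above HSC 2.

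Replicate 1 and replicate 2 were therefore compared within HSC and within BM for the members. In 19 of 27 members with values on these 4 arrays the difference had the same sign in HSC and in BM (70.4%), where the same was true of 69% of 11255 probes, so the members did as the array did. Replicate 1 was higher by more than 0.5 log2 units in both groups for 4 of the 27 members, against 6.24% of all probes. These were Parp1 (1.03 in HSC and 1.66 in BM), Brca2 (0.95 and 0.80), Nbn (0.79 and 0.66) and Xrcc6 (0.64 and 0.52). Replicate 2 was higher by more than 0.5 in both for 1 member, Mutyh (-0.56 in HSC and -0.89 in BM), not above background on these 4 arrays, against 2.75% of all probes. H2ax differed by 0.29 in HSC and 3.91 in BM. A gap over 1 log2 unit was found among the 28 tested members with both arrays of a group for 1 in MSC (Brca1), 1 in HSC (Parp1) and 2 in BM (H2ax and Parp1), where 4.77%, 2.62% and 5.96% of all probes had one.

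**Figure D4:**
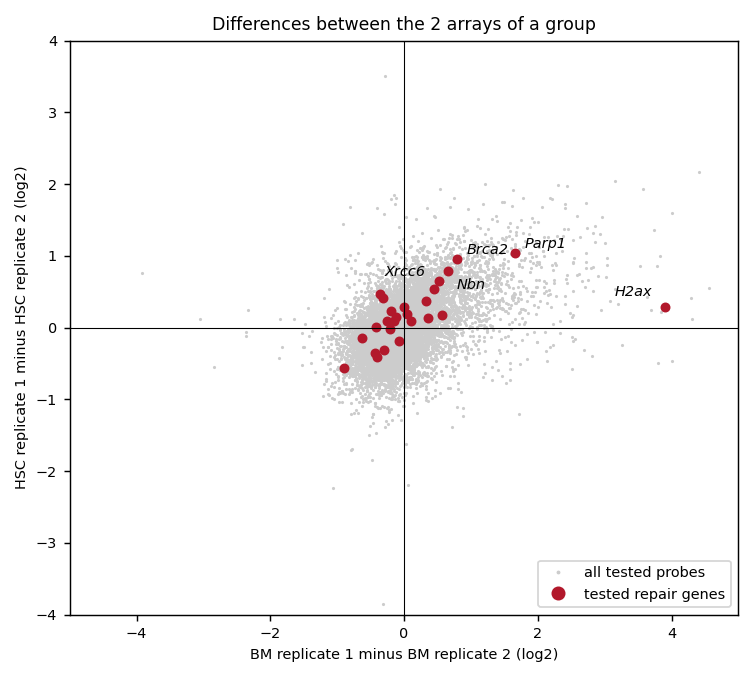
Difference between the 2 HSC arrays (vertical axis) against the difference between the 2 BM arrays (horizontal axis), both in log2 units, for all tested probes in grey and tested repair genes in red. Parp1, Brca2, Nbn and Xrcc6 are higher on replicate 1 in both groups, and H2ax is far to the right at 3.91 (7 grey points lie outside the axes).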

How the data were processed

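The authors deposited scanner files of 6 one-colour arrays, which per the file headers come from CodeLink Expression Analysis 4.0.0.23520 and hold linear intensity per spot (spot mean, local background median, quality flag). The authors also deposited a table of log2 values. Its medians were 7.87 on every array and its ranks were those of the absolute background-subtracted intensity, so the sign of dim spots was dropped. It served as an alternative. Background correction and normalization of that table are not given in the sources used here. The label protocol names a human array, whereas the methods name the mouse array and the probes carry mouse sequence records.

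Intensities were corrected with normexp (offset 50), freed of 488 control spots and of 237 to 589 defective probes per array, quantile normalized and log2 transformed. Probes were named by sequence record (10712), gene number (3642) or platform annotation (278), and 5169 of 19801 stayed unnamed. Testing required that 1 of the 2 groups compared had the probe above background on each of its arrays. limma 3.58.1 (R 4.3.3) fitted all 6 arrays (3 residual degrees of freedom), two-sided, with Benjamini-Hochberg adjustment per comparison and a threshold of 0.05, and was tested on simulated data. For a gene with 2 probes the one with the higher mean entered counts. The number of arrays limits the precision. Named were H2ax, Neil1, members past the threshold, the 2 largest changes between MSC and HSC per repair class, and members without overlap and a log2 fold change of at least 1. Further members are given with their values to describe each class, as chosen after these were seen. Of the other pathway genes, those among the 3 largest changes in either direction could be named, and some of them are not reported here. Members, gene lists and promoter motifs were chosen with earlier results of these data known. Alternatives changed the background correction, normalization, filter, arrays in the fit, replicate block and test. Figures were drawn with matplotlib 3.10.9.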

Additional observations from a re-analysis of the deposited data

How the results depend on the processing

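The first Neil1 probe kept its sign against HSC and BM under every alternative tried, and its calls held under the other background corrections, normalizations, filters and the deposited values. Between MSC and HSC 2 members were called with only the 4 arrays compared (H2ax and Neil1) and by the rule of the methods' t-test, 0 by that t-test after Benjamini-Hochberg adjustment (Neil1 adjusted p = 0.419), and 0 to 2 when 1 array was left out. Between MSC and BM 0 to 2 were called, and between HSC and BM 0 to 1, when 1 array was left out. Over all probes, 59 were called between MSC and HSC, 52 between MSC and BM and 4 between HSC and BM. These counts were 34, 27 and 0 with the deposited values and 27, 25 and 2 without the filter. Single counts were 38 (MSC and HSC, offset 16), 88 and 9 (MSC and BM, HSC and BM, median scaling), 30 (MSC and BM, probes above background on all arrays), 25 and 1 (MSC and BM, HSC and BM, only the arrays compared), and 7 (HSC and BM, background subtracted). Leaving out 1 array gave 18 to 69, 16 to 74 and 1 to 46.

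The pool numbers were not taken to pair the samples, since deviations of same-numbered pools correlated at 0.591 for HSC and BM but at -0.206 for MSC and HSC and -0.285 for MSC and BM over 8771 probes. With the number as a replicate block, 1 member was called between MSC and HSC, 0 between MSC and BM (Neil1 adjusted p = 0.0584) and 0 between HSC and BM, and 18, 21 and 0 probes overall. With the MSC numbers crossed, chosen after seeing the data, the block called 2 (Neil1 and Polb), 1 and 0 members and 272, 109 and 6 probes.

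The median member log2 fold change was 0.14 between MSC and HSC without a filter on dim probes and -0.12 to 0.14 when 1 array was left out. Between MSC and BM it was -0.019 under median scaling and -0.092 to 0.076 when 1 array was left out. The cause was not tested. Of the values of named genes, 589 kept direction and side of the threshold, 9 lost it, 5 gained it and 11 changed sign, all 11 when 1 array was left out. This tally leaves out the crossed block and comparisons in which a gene was untested with all 6 arrays. H2ax between HSC and BM, called without BM 2 through BM 1 alone, is such a case. All 5 gains were H2ax. Between MSC and HSC its gains without BM 1 and without BM 2 repeat that of the 4 arrays compared, with the same 3.34 (SE 0.26). A lone BM array adds nothing to the spread, so these are not separate results. Over the arrays left out, the first Brca1 probe ranged from -1.36 to 0.13 between MSC and HSC and from -1.01 to 0.49 between MSC and BM, and the second from -0.19 to 0.10 between MSC and HSC. H2ax ranged from -0.24 to 3.67 and Xpa from -0.12 to 0.024 between MSC and BM. Between HSC and BM the second Neil1 probe ranged from -0.092 to 0.67, Xrcc6 from -9e-04 to 0.64, Msh6 from -0.31 to 0.098 (0.050 without BM 2) and Ercc1 from -0.18 to 0.025. Limits are 2 pools per group, pools that differ in the number of mice between groups, and for H2ax 2 of 6 arrays not above background.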
